A study of Mus musculus with 17 samples.

Results

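Loss of Rbp2 was compared on top of loss of Men1 in mouse pancreatic islets: 4 arrays of double-knockout islets against 3 arrays of Men1 single-knockout islets, 7 of the 17 arrays of the series. The arrays were chosen by the genotypes in their titles, with no use of measured values. The double knockout carried Men1flf, Rbp2flf and RIP-Cre, and the single knockout carried Men1flf and RIP-Cre, so the Men1 deletion and the Cre transgene were common to both groups and the Rbp2 allele was the labelled difference. The other groups were Rbp2flf with RIP-Cre (4 arrays), RIP-Cre alone (3) and wt (3). All mice were 2 months old and untreated. Total RNA of whole islets was hybridised to whole-transcript Affymetrix arrays. RIP-Cre expresses Cre from the rat insulin promoter, so beta cells recombine while the alpha, delta and other cells of the same islet keep their floxed genes. Within a group the arrays are titled as numbered repeats, and no label says whether a repeat was another mouse, so a p-value here reflects only array-to-array spread, which may be technical.

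Menin, the product of Men1, is a scaffold of the MLL1 and MLL2 histone methyltransferase complexes, which place trimethyl marks on lysine 4 of histone H3 at promoters. In mouse and human its loss gives rise to islet tumours. RBP2, also named JARID1A and encoded by Kdm5a, removes methyl groups from the same lysine. The pair of enzymatic activities therefore oppose each other, and the design asks which expression differences appear when beta cells lack the demethylase as well as menin. The same Cre acts on both floxed alleles, so the design sets no order of loss. An AT-rich interaction domain of RBP2 is known to bind DNA holding CCGCCC, a sequence that read on the other strand is GGGCGG, the core of the GC box bound by Sp1.

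Genes that led the comparison differed in whether their promoters hold these letters, in both directions. The 250 bases before the start site are given for the 4 most raised and then the 4 most lowered called genes, from RefSeq on GRCm38.p6, each 5′ to 3′ on the strand of its gene, in lower case with CCGCCC or GGGCGG in capitals.
Spc25 (chr2:69206214-69206463, minus strand): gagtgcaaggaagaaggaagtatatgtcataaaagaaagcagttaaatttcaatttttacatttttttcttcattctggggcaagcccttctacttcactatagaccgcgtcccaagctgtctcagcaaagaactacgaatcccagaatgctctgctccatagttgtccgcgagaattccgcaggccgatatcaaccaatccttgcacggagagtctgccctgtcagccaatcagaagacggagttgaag
Dapl1 (chr2:59484403-59484652, plus strand): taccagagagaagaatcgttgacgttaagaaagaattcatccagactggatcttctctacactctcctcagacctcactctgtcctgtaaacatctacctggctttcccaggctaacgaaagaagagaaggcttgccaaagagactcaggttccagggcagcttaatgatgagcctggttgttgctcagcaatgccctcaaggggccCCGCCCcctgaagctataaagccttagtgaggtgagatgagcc
Prom1 (chr5:44101737-44101986, minus strand): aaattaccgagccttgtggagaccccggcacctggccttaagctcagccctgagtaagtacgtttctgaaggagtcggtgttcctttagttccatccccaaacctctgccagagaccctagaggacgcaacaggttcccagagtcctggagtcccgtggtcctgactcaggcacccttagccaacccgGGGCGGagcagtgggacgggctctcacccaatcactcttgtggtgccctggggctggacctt
Pcp4 (chr16:96467356-96467605, plus strand): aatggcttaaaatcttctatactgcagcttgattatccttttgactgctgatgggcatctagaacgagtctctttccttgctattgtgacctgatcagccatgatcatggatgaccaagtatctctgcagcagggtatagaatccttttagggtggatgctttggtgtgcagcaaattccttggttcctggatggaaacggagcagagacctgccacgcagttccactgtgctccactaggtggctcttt
Gdpd3 (chr7:126766164-126766413, plus strand): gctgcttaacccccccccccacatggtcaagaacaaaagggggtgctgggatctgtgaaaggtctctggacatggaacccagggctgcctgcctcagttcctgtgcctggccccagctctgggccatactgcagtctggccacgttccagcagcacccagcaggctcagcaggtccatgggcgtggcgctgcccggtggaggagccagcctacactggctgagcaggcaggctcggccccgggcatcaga
Lrrc55 (chr2:85198751-85199000, minus strand): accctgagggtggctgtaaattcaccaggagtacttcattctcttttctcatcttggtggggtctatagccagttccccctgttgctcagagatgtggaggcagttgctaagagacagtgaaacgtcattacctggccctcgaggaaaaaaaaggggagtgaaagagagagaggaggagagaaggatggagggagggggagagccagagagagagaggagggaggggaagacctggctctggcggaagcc
Fam107a (chr14:8317608-8317857, minus strand): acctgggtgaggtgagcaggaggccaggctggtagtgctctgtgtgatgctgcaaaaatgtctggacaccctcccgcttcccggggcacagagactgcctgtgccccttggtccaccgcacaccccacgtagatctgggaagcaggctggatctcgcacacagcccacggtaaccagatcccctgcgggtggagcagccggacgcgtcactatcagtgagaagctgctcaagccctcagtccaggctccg
Zfp868 (chr8:69625549-69625798, minus strand): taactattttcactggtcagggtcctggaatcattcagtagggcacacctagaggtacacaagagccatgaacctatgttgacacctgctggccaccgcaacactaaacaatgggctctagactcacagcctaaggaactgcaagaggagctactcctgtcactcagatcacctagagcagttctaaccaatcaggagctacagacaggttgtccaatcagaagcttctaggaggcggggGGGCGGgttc
Of the 4 raised genes, Dapl1 held the motif once, beginning at base -43 from the start site, and Prom1 once at -62, while Spc25 and Pcp4 held none in this window. Of the 4 lowered genes Zfp868 held it once, at -10, and Gdpd3, Lrrc55 and Fam107a held none. Over the 15 most raised and 15 most lowered genes, it was held by 5 of 12 raised and 4 of 14 lowered genes with a listed promoter. Among all tested genes with a listed promoter, 46.0% of 15614 held CCGCCC or GGGCGG on either strand in these 250 bases, and the share over every promoter of that length in the table was 32.9%. The share was 63.7% (58 of 91) among the genes called lower in the double knockout and 52.5% (93 of 177) among those called higher. These shares are descriptions with no test. The probe sets' signal bears no measurement of RBP2 binding.

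The targeted genes were read first. On the 1 probe set that names Men1 alone, the single-knockout arrays stood at 8.14, 8.43 and 8.42 on the log2 intensity scale and the double-knockout arrays at 8.87, 8.54, 8.64 and 8.46. The RIP-Cre arrays were at 9.31 to 9.49, above both, and the Rbp2 RIP-Cre arrays at 10.05 to 10.24. That rise over RIP-Cre was called (0.73, limma adjusted p = 0.00359), and the call was kept when any 1 of the 17 arrays was left out. Men1 was 0.30 higher in the double than in the single knockout (SE 0.11, limma adjusted p = 0.205), and the 2 groups did not overlap although the difference was not called. Kdm5a, read by 1 probe set, stood at 9.50, 9.39 and 9.44 in the single knockout and at 9.39, 9.07, 9.39 and 9.10 in the double knockout. Its difference of -0.21 (SE 0.11, adjusted p = 0.399) was not called, nor was that between Rbp2 RIP-Cre and RIP-Cre (-0.22, adjusted p = 0.148). The files used here do not place the probes on the transcript, so the Kdm5a signal neither checks nor contradicts the Rbp2 label. Probes outside a deleted exon would still be detected, and islet cells without Cre keep both genes.

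The tissue label was checked against islet hormones. Ins2, insulin 2, lay at 13.66 to 13.74 in the single and 13.64 to 13.69 in the double knockout, and Gcg, glucagon, at 13.15 to 13.39 and 13.40 to 13.76. Acinar transcripts were also present: the array mean of 22 acinar genes ran from 8.17 to 10.06 in the single and from 8.21 to 10.18 in the double knockout, with 1 high array in each group, single-knockout array 1 and double-knockout array 3. Array medians were 7.86 to 7.87 in the single and 7.88 to 7.95 in the double knockout, which did not overlap. The double-knockout arrays also fell into pairs. Arrays 1 and 3 correlated at 0.989 and arrays 2 and 4 at 0.99, while correlations across these pairs were 0.98 to 0.983. The single-knockout arrays correlated at 0.987 to 0.989 with each other. Counts are therefore also given from each pair alone. A named gene whose call between the double and the single knockout was lost from 1 pair is named as such.

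Of 19938 genes, 333 (1.67%) differed between the double and the single knockout at a Benjamini-Hochberg adjusted p under 0.05 in limma, which is what called means from here on. A total of 220 genes (1.10%) were higher in the double knockout and 113 (0.567%) were lower. The median size among the called genes was 0.60 log2 units with a median SE of 0.12, and 48 genes, 29 higher and 19 lower, differed by at least 2-fold. The groups did not overlap for 331 of the 333, against 20.5% of all genes (14.3% with the double knockout higher and 6.15% with it lower). An unadjusted p under 0.05 was reached by 2871 genes. The count depended on single arrays: it was 111 without single-knockout array 1, 176 without single-knockout array 3 and 211 without double-knockout array 1. Without double-knockout arrays 1 and 3 it was 163, and without arrays 2 and 4 it was 294. The excess of higher genes also depended on scaling. The median over all genes was 0.07 above 0 as deposited and 0.01 after cyclic loess, and the split of calls went from 220 higher and 113 lower (66.1% higher) to 242 and 223 (52.0% higher).

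**Figure D1:**
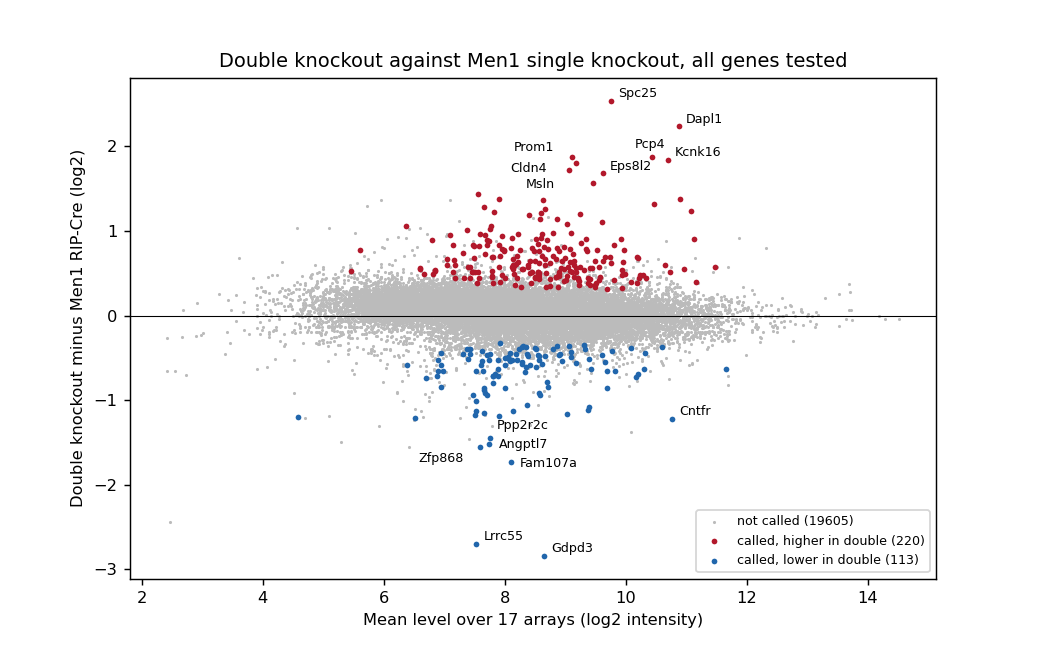
Each point is 1 gene, placed by its mean level over 17 arrays (log2 intensity, x axis) and by the double knockout minus the Men1 single knockout (log2, y axis). Red points are the 220 genes called higher and blue points the 113 called lower, with Spc25 at 2.54 and Gdpd3 at -2.84 as the extremes among them.

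Several of the genes that fell most in the double knockout stood higher in the Men1 single knockout than in RIP-Cre islets, which keep both genes. The genes were chosen by the difference between the knockouts, so a single knockout above RIP-Cre is partly fixed by that choice. Lrrc55, which encodes an auxiliary subunit of BK potassium channels, read 10.06, 9.56 and 9.71 in the single knockout and 7.33, 7.05, 6.90 and 7.04 in the double knockout. All 4 double-knockout arrays lay within or next to the RIP-Cre range of 6.93 to 7.32. The fall was 6.48-fold (log2 -2.70, SE 0.14, adjusted p = 1.47e-08). Differences from RIP-Cre were common: 53.5% of all genes were called for the single knockout (15.7% higher, 37.8% lower) and 33.7% for the double knockout (13.0% higher, 20.6% lower). No other setting is given here for differences from RIP-Cre, whose array medians (7.97 to 8.16) lay above those of both groups. Whether calls against RIP-Cre near the threshold hold in other settings is therefore not shown. Against RIP-Cre, Lrrc55 was 2.68 higher in the single knockout (adjusted p = 4.55e-08) and -0.01 in the double knockout (95% interval -0.30 to 0.28, adjusted p = 0.944).

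Fam107a, an actin-associated protein also known as DRR1, showed a like pattern of levels. It read 9.88, 9.60 and 9.66 in the single knockout and 7.89, 7.97, 8.01 and 8.06 in the double knockout, with RIP-Cre at 7.44 to 7.92. The difference was -1.73 (SE 0.14, adjusted p = 9.37e-06). Zfp868, a zinc finger gene, stood at 8.83, 8.84 and 8.67 against 7.23, 7.24, 7.13 and 7.30, a difference of -1.56 (SE 0.20, adjusted p = 0.000427), with RIP-Cre at 6.98 to 7.64. Ppp2r2c, a brain-enriched regulatory subunit of protein phosphatase 2A, stood at 9.14, 9.54 and 8.57 against 7.36, 7.54, 7.68 and 7.96 (difference -1.45, SE 0.18, adjusted p = 0.000397), with RIP-Cre at 7.35 to 7.55. For each of these 3 genes the groups were separate, and the double knockout's difference from RIP-Cre (0.24 for Fam107a, -0.06 for Zfp868, 0.18 for Ppp2r2c) was not called, while the single knockout's (1.97, 1.49 and 1.63) was.

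Cntfr, the receptor subunit for ciliary neurotrophic factor, read 11.99, 11.57 and 11.88 in the single knockout and 11, 10.49, 9.93 and 10.95 in the double knockout (difference -1.22, SE 0.22, adjusted p = 0.00811), a call that was lost without single-knockout array 1 (-1.13, adjusted p = 0.0638). Glra1, a glycine receptor subunit, fell from 8.93, 9.24 and 9.63 to 8.01, 7.96, 8.15 and 8.18 (-1.19, SE 0.20, adjusted p = 0.00478), and missed the threshold without double-knockout arrays 1 and 3 (-1.2, adjusted p = 0.0502). Astn1, astrotactin 1, which acts in the migration of young neurons along glia, fell from 9.49, 9.24 and 9.21 to 8.23, 8.03, 8.24 and 8.24 (-1.13, SE 0.12, adjusted p = 6.64e-05). The double knockout differed from RIP-Cre by 0.11 for Cntfr, 0.52 for Glra1 and 0.24 for Astn1, none of them called, while the single knockout exceeded RIP-Cre by 1.33, 1.71 and 1.37, all called. Asphd2 fell by 1.13 and Nebl, the nebulette gene of the actin cytoskeleton, fell by 1.15, and both were above RIP-Cre in the single knockout (1.56 and 1.45). In the double knockout Asphd2 was still called above RIP-Cre (0.43, adjusted p = 0.0421), and Nebl was not (0.30, adjusted p = 0.234). The second probe set of Nebl gave -0.50 (adjusted p = 0.166), which was not called, and the first lost its call without double-knockout arrays 1 and 3 (-1.16, adjusted p = 0.0504).

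A second set of lowered genes ended below RIP-Cre. Gdpd3, a lysophospholipase D of the glycerophosphodiester phosphodiesterase family, had the largest fall of all called genes. It read 10.40, 10.74 and 10.35 in the single knockout and 7.71, 7.44, 7.88 and 7.58 in the double knockout, a 7.18-fold difference (log2 -2.84, SE 0.41, adjusted p = 0.00132). RIP-Cre lay between them at 9.07 to 9.42, so that the single knockout was 1.25 above it (adjusted p = 0.0264) and the double knockout 1.60 below it (log2 -1.60, adjusted p = 0.0109). Angptl7, a secreted angiopoietin-like protein, fell from 8.28, 7.99 and 8.96 to 7.08, 6.98, 6.68 and 6.82 (-1.52, SE 0.23, adjusted p = 0.00204), against 7.56 to 8.47 in RIP-Cre, and the single knockout did not differ from RIP-Cre beyond the test (0.33, adjusted p = 0.263).

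Apobec1, the editing enzyme that deaminates a cytidine of apolipoprotein B mRNA, fell from 10.21, 9.59 and 9.76 to 8.82, 8.39, 9.14 and 8.60 (-1.12, SE 0.17, adjusted p = 0.00246), with RIP-Cre at 10.25 to 10.30, and ended 1.54 below RIP-Cre (log2 -1.54, adjusted p = 0.000167). Hsd3b2, a 3 beta-hydroxysteroid dehydrogenase gene, fell by 1.21 to -0.70 relative to RIP-Cre (adjusted p = 0.00574). Lonrf2 fell by 1.18 to -0.40 relative to RIP-Cre (adjusted p = 0.0176). Hsd3b2 belongs to a family of close copies on which probes may cross-hybridise, which was not tested.

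Plagl1, an imprinted zinc finger gene, was above RIP-Cre (8.5 to 8.59) in both groups. It read 9.96, 11.44 and 9.66 against 9.07, 9.17, 9.28 and 9.27 (-1.16, adjusted p = 0.0344). Its value rested on single-knockout array 2 and was -0.61 without it, and the call was lost upon 5 of 17 single-array omissions (without single-knockout array 1 or any 1 double-knockout array) and from either pair of double-knockout arrays (adjusted p = 0.171 and 0.1).

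**Figure D2:**
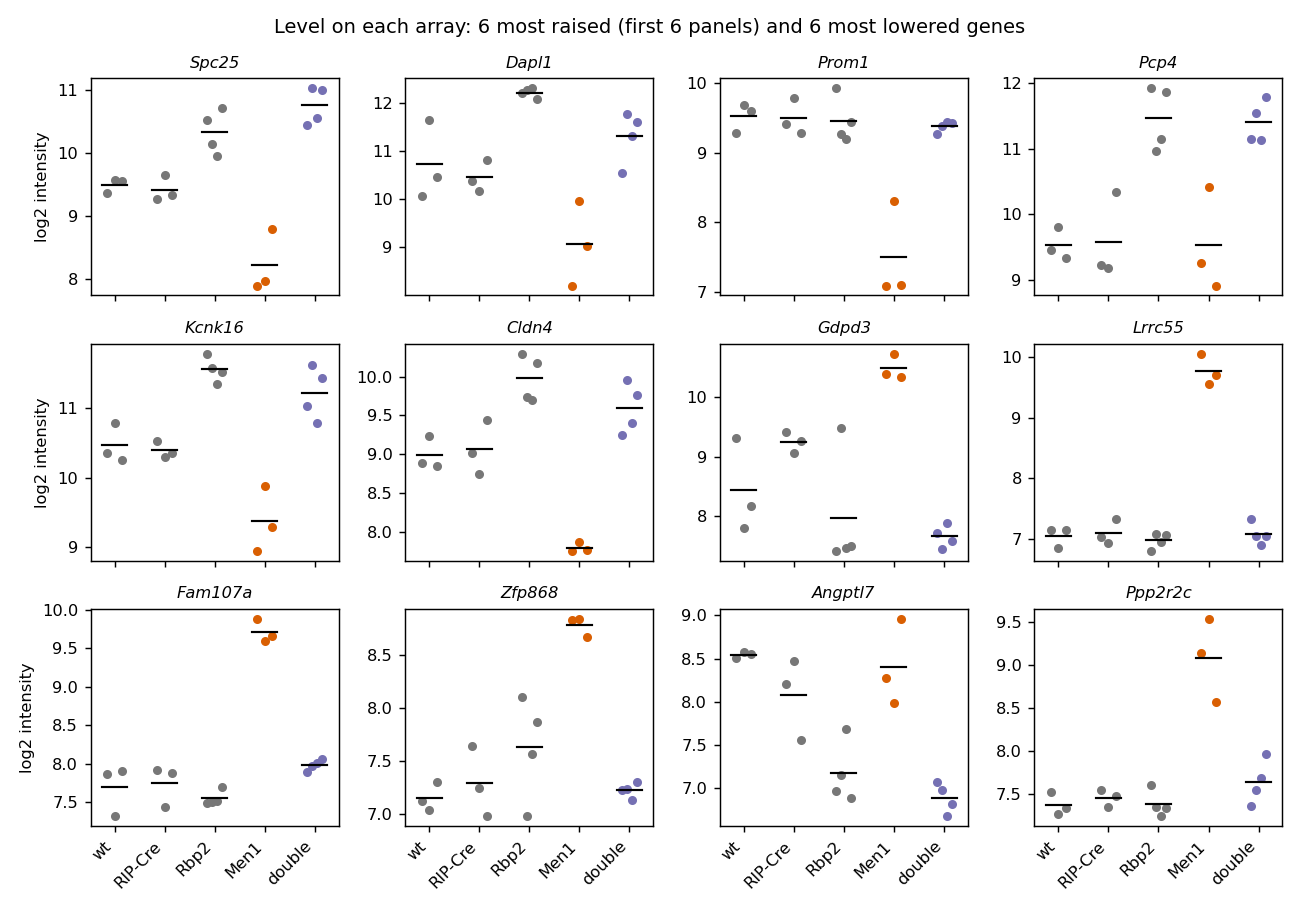
Level on every array (points, log2 intensity) and group means (bars) for the 6 most raised genes, in the first 6 panels, and the 6 most lowered genes. The y axes are cut to each gene's own range. The Men1 single-knockout arrays (orange) stand apart from the double-knockout arrays (purple) in all 12 panels. In every panel but Pcp4 and Angptl7 they stand apart from every other group.

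For several of the raised genes the order was turned, with the single knockout below RIP-Cre and the double knockout near or above it. As for the lowered genes, this order is partly fixed by choosing genes on the difference between the knockouts. Spc25, a subunit of the NDC80 kinetochore complex that attaches chromosomes to spindle microtubules, had the largest rise. It read 7.90, 7.97 and 8.80 in the single knockout and 10.45, 11.03, 10.56 and 11 in the double knockout, a 5.80-fold difference (log2 2.54, SE 0.22, adjusted p = 1.29e-05). RIP-Cre was at 9.27 to 9.66, so the single knockout was 1.2 below it (log2 -1.2, adjusted p = 0.00142) and the double knockout 1.34 above it (adjusted p = 0.00152). Of 29 other genes listed for mitosis none was called (median 0.14, highest Foxm1 at 0.44). G6pc2, the islet glucose-6-phosphatase gene, lies beside Spc25 on chromosome 2 and read 12.79 to 12.91 in the single and 12.37 to 13.00 in the double knockout (-0.19, SE 0.16, adjusted p = 0.591).

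Prom1, prominin 1, a membrane protein of cell protrusions, read 7.09, 8.31 and 7.10 in the single and 9.27, 9.38, 9.45 and 9.43 in the double knockout (1.88, SE 0.24, adjusted p = 0.00045). The double knockout was within 0.11 of RIP-Cre (log2 -0.11, adjusted p = 0.72), where the single knockout was at -2.0. Eps8l2, an actin regulator of the EPS8 family, read 7.76, 8.04 and 8.22 against 9.86, 9.44, 10.14 and 9.32 (1.68, SE 0.15, adjusted p = 2.48e-05). It remained under RIP-Cre, by 0.43 (log2 -0.43, adjusted p = 0.0423), where the single knockout was at -2.11. Cldn4, the tight junction protein claudin 4, read 7.75, 7.86 and 7.76 against 9.25, 9.96, 9.40 and 9.76 (1.80, SE 0.19, adjusted p = 0.000101) and passed RIP-Cre by 0.53 (adjusted p = 0.0455).

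Kcnk16, the islet potassium channel TALK-1, rose from 8.95, 9.88 and 9.29 to 11.03, 11.62, 10.79 and 11.43 (1.84, SE 0.21, adjusted p = 0.000225). Scn3a, a voltage-gated sodium channel of beta cells, rose from 6.44, 6.44 and 6.59 to 8.09, 8.07, 7.82 and 7.52 (1.38, SE 0.17, adjusted p = 0.000339). Fxyd6, a regulator of the sodium-potassium pump, rose from 9.71, 10.36 and 9.84 to 11.11, 11.57, 10.97 and 11.52 (1.32, SE 0.19, adjusted p = 0.00142). Relative to RIP-Cre the double knockout was at 0.83 for Kcnk16 (adjusted p = 0.0107), -0.23 for Scn3a (adjusted p = 0.272) and 1.2 for Fxyd6 (adjusted p = 0.00148).

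Pcp4, a calmodulin-binding peptide first found in Purkinje cells, read 9.26, 10.42 and 8.91 in the single and 11.15, 11.55, 11.13 and 11.78 in the double knockout (1.87, SE 0.35, adjusted p = 0.00854). Its call was lost without single-knockout array 1 (1.74, adjusted p = 0.0681), without single-knockout array 3 (1.56, adjusted p = 0.0631) and without double-knockout arrays 2 and 4 (1.61, adjusted p = 0.0773). Dapl1, a death-associated protein-like gene, read 8.21, 9.96 and 9.03 against 10.55, 11.76, 11.31 and 11.61 (2.24, SE 0.38, adjusted p = 0.00471), and was lost without double-knockout arrays 2 and 4 (1.86, adjusted p = 0.0608). Single-knockout arrays spread widely in both genes. Dio1, the deiodinase that activates thyroid hormone, was tighter, at 8.10, 8.82 and 8.75 against 9.99, 10.22, 10.09 and 10.22 (1.57, SE 0.22, adjusted p = 0.000924). Msln, mesothelin, was 1.72 higher, but its adjusted p of 0.0457 rose above 0.05 upon 11 of 17 single-array omissions (up to 0.28, without single-knockout array 1) and from either pair of double-knockout arrays (0.144 and 0.108).

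The remaining leading genes were Cib3, a calcium and integrin binding protein (1.44, adjusted p = 0.000946), Ccnd1, described with its list, Snhg11, a small nucleolar RNA host transcript (1.37, adjusted p = 0.00562), and Myo7a, an unconventional myosin of hair bundles and retina (1.28, adjusted p = 5e-05). The second probe set of Snhg11 gave 0.36 (adjusted p = 0.196), which was not called.

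**Figure D3:**
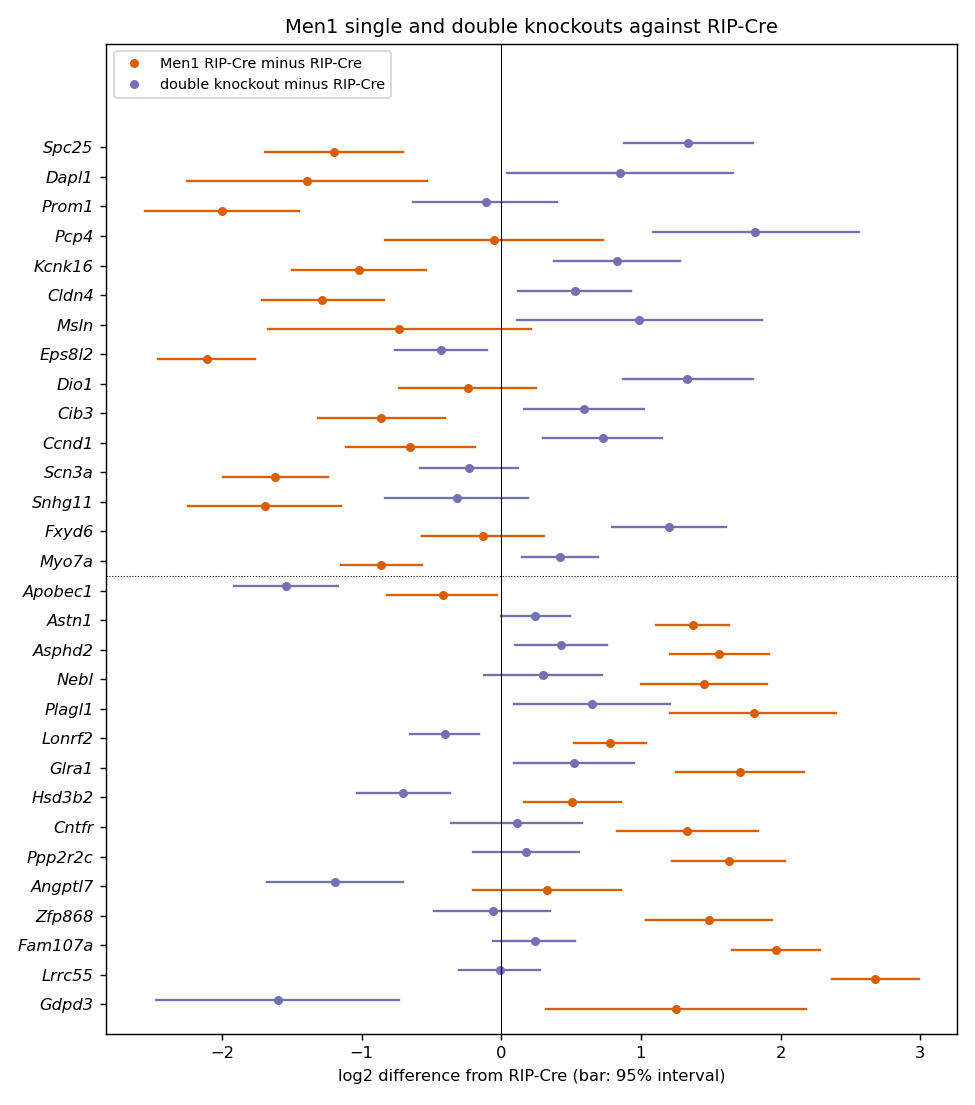
For the 15 most raised genes (above the dotted line) and the 15 most lowered ones, points give the log2 difference of the Men1 single knockout (orange) and of the double knockout (purple) from RIP-Cre, with 95% intervals as bars (x axis, log2). Both differences share the RIP-Cre arrays, and each also shares arrays with the comparison that chose the genes. Prom1 goes from -2.0 to -0.11 and Lrrc55 from 2.68 to -0.01, while Pcp4 goes from -0.05 to 1.82.

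The same Rbp2 allele was also deleted in islets that kept Men1, on arrays that share none with the comparison above. There 2672 genes were called in Rbp2 RIP-Cre against RIP-Cre (13.4%, with 6.70% higher and 6.70% lower), a count that fell to 223 without RIP-Cre array 3, 353 without Rbp2 RIP-Cre array 1 and 920 without Rbp2 RIP-Cre array 2, and to 42 with the array median as a covariate. Called in both comparisons were 84 genes, 25.2% of the 333 and 3.14% of the 2672. Of these, 58 were higher in both, 17 lower in both and 9 opposite. By sign alone, 162 of the 220 genes raised by Rbp2 loss in Men1-deleted islets (73.6%) were also above 0 in islets with Men1, against 33.1% of all genes. Of the 113 lowered genes 75 (66.4%) were below 0, against 66.9% of all genes. After cyclic loess, in which fewer genes lay below 0, the shares for the same 220 and 113 genes were 74.5% against 45.4% and 59.3% against 54.6%.

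These shares depended on which pair of double-knockout arrays was used. With arrays 2 and 4 alone, 66 of the 69 genes called in both comparisons went the same way. With arrays 1 and 3 alone it was 36 of 102. The share of lowered genes that were also below 0 in islets with Men1 was 86.0% of 50 with arrays 2 and 4 and 27.8% of 126 with arrays 1 and 3. The share of raised genes above 0 was 84.1% of 113 and 57.1% of 168.

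Among the genes that rose in both settings, Pcp4 stood at 9.22, 9.18 and 10.34 in RIP-Cre and at 11.92, 10.96, 11.14 and 11.87 in Rbp2 RIP-Cre. Its rise was 1.89 (adjusted p = 0.00942) with Men1 and 1.87 without, and the interval of the difference between the effects was -1.06 to 1.02. Dapl1 rose by 1.76 and 2.24, with a difference of 0.48 (interval -0.66 to 1.63). Ccnd1 rose by 1.24 and 1.38 (0.14, interval -0.47 to 0.74), Dio1 by 1.31 and 1.57 (0.26, -0.39 to 0.91) and Kcnk16 by 1.16 and 1.84 (0.68, 0.05 to 1.32, adjusted p = 0.117). For Msln the rises were 1.70 and 1.72, with a wide interval of -1.23 to 1.26. The Rbp2 calls in islets with Men1 depended on scaling: with the array median as a covariate none of these 6 was called (adjusted p from 0.105 for Ccnd1 to 0.224 for Dapl1, with log2 effects of 0.90 to 1.87), and the call of Msln was also lost upon 3 of 17 single-array omissions.

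Apobec1 fell by 1.60 with Men1, from 10.25 to 10.30 in RIP-Cre down to 8.56 to 8.95, and by 1.12 without it. The difference was 0.49 (interval -0.04 to 1.01), and with the array median as a covariate its fall with Men1 was still called (-1.47, adjusted p = 0.00737). Gdpd3 stood at 7.41, 9.49, 7.45 and 7.49 in Rbp2 RIP-Cre, where array 2 lay at the RIP-Cre level of 9.07 to 9.42 and the other 3 lay far below it. Its fall of 1.29 (log2 -1.29, adjusted p = 0.0487) was -1.80 without that array and lost its call upon 13 of 17 single-array omissions, so its call in both comparisons is not firm. In no gene of these 8 was the difference between the effects called. They were named for calls in the same direction in both comparisons, so like effects are partly fixed by that choice.

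**Figure D4:**
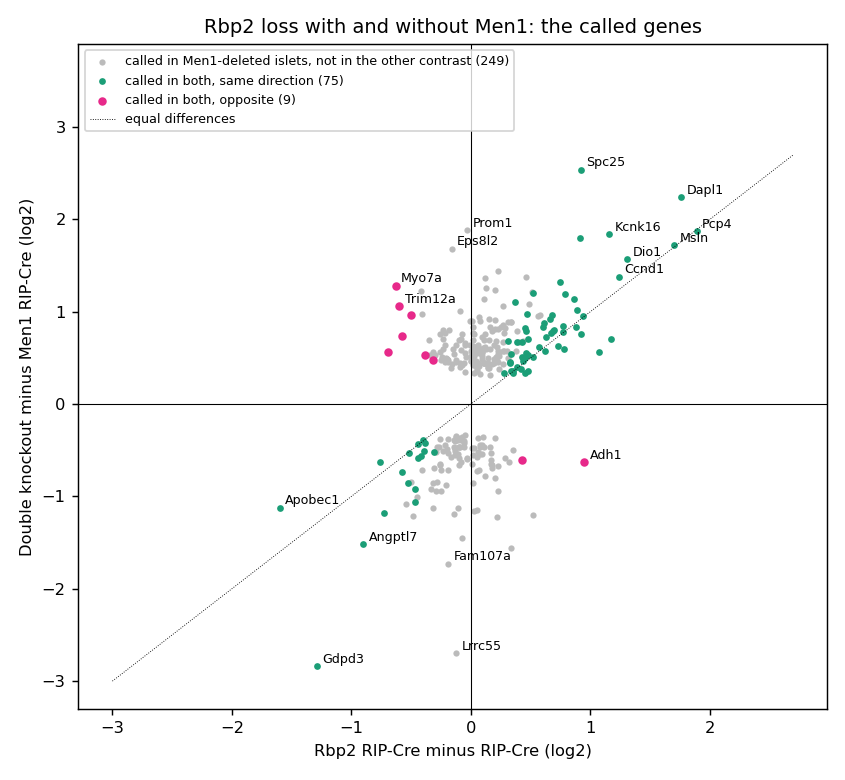
The 333 genes called in the double against the Men1 single knockout, each placed by the effect of Rbp2 loss with Men1 (Rbp2 RIP-Cre minus RIP-Cre, log2, x axis) and without it (double minus Men1 RIP-Cre, log2, y axis). Green points are the 75 called in both in the same direction, pink points the 9 called in opposite directions, and grey points are called on the y axis alone; Pcp4 lies by the dotted line of equal differences, and Lrrc55 and Prom1 lie near 0 on the x axis.

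For other genes the effect of Rbp2 loss differed between islets with and without Men1. The interaction, which is the effect without Men1 minus the effect with it, was called for 675 genes (3.39%, with 1.78% above 0 and 1.61% below), including 100 of the 333 (30.0%). The share of the 333 is partly fixed by their choice, since the interaction contains the difference that chose them. The total of 675 was unstable. It ran from 22 to 2783 when each array was left out in turn, was 12 without double-knockout arrays 1 and 3 and 3340 without arrays 2 and 4, and was 20 with the array median as a covariate, so single genes are given with the settings that lost their call. Lrrc55 was at 6.80 to 7.08 in Rbp2 RIP-Cre and 6.93 to 7.32 in RIP-Cre, and its interaction was -2.58 (adjusted p = 6.41e-06), kept in all 17 omissions of 1 array and from either pair of double-knockout arrays. Eps8l2 was at 9.93 to 10.01 against 10.07 to 10.19 and its interaction was 1.85 (adjusted p = 0.00111), kept in the same settings. Fam107a had an interaction of -1.54 (adjusted p = 0.00197), also kept in them. Zfp868 (-1.90, adjusted p = 0.007) was kept in all 17 but not without double-knockout arrays 1 and 3 (adjusted p = 0.0726). With the array median as a covariate it was also lost (adjusted p = 0.136). Prom1 (interaction 1.92, adjusted p = 0.0199) was kept in 15 of 17 and lost without double-knockout arrays 1 and 3 (adjusted p = 0.124). Spc25, raised by 0.92 with Men1 and by 2.54 without, had an interaction of 1.62 (adjusted p = 0.0283) that was kept in 13 of 17. It was lost without double-knockout arrays 1 and 3 (1.87, adjusted p = 0.0677) and with the array median as a covariate (adjusted p = 0.076). The rise of Spc25 with Men1 (adjusted p = 0.0218) lost its call in 2 of 17 omissions and with that covariate (0.69, adjusted p = 0.307).

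A few genes moved in opposite directions. They were named for opposite calls, and the interaction is the difference between those effects, so its call adds no separate evidence. Myo7a fell in Rbp2 RIP-Cre, from 7.57 to 7.94 in RIP-Cre down to 6.92 to 7.30 (-0.63, adjusted p = 0.0139), and rose by 1.28 in the Men1-deleted islets, from 6.85 to 7.04 up to 8.05 to 8.37. The interaction of 1.92 (adjusted p = 0.000105) was kept in all 17 omissions, while the fall with Men1 was not called with the array median as a covariate (adjusted p = 0.178). Adh1, a class I alcohol dehydrogenase, rose by 0.95 with Men1 (adjusted p = 0.00239) and fell by 0.63 without (adjusted p = 0.0172), with an interaction of -1.58 (adjusted p = 0.00111). The interaction was kept in all 17 omissions, but the fall was lost upon 4 of them (single-knockout arrays 1 and 3, double-knockout arrays 1 and 3) and without double-knockout arrays 1 and 3 (-0.47, adjusted p = 0.182) together. Cyp4f39, a cytochrome P450 of the fatty acid hydroxylase family, was -0.50 with Men1 and 0.96 without, with an interaction of 1.46 (adjusted p = 0.00343). Trim12a, a tripartite motif gene, was -0.60 and 1.06 (interaction 1.67, adjusted p = 0.00197), and Tnfrsf17, the receptor BCMA of plasma cells, was -0.69 and 0.56 (1.26, adjusted p = 0.00197). Ciapin1, an iron-sulfur cluster assembly factor, was 0.43 and -0.61 (-1.04, adjusted p = 0.015). The interactions of Cyp4f39, Trim12a and Tnfrsf17 were kept in all 17 omissions and from either pair of double-knockout arrays. That of Ciapin1 was lost in 1 omission and without double-knockout arrays 1 and 3 (-0.92, adjusted p = 0.119). With the array median as a covariate, the interactions of Cyp4f39 (adjusted p = 0.0587) and Ciapin1 (adjusted p = 0.0737) were lost. The separate calls behind the opposite signs were less firm. With Men1, that of Cyp4f39 was lost in 4 of 17 omissions, that of Ciapin1 in 5 and that of Trim12a in 2 and after cyclic loess (-0.40, adjusted p = 0.127), and none of these 4 genes was called there with the array median as a covariate. Without Men1, Tnfrsf17 lost its call in 4 omissions (single-knockout arrays 1 and 3, double-knockout arrays 1 and 2) and from either pair of double-knockout arrays, and Ciapin1 in 2 (single-knockout arrays 1 and 3) and without double-knockout arrays 1 and 3. Trim12a and Tnfrsf17 were dim, at 5.54 to 7.22 in these 4 groups.

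Other genes reached the interaction with no call in the double against the single knockout. Gem, a small GTPase that inhibits voltage-gated calcium channels, fell by 1.87 in Rbp2 RIP-Cre (adjusted p = 9.62e-05), from 9.15 to 9.60 in RIP-Cre down to 7.36 to 7.87. In Men1-deleted islets it was already low, at 7.67, 7.92 and 7.87 in the single knockout, and stood at 7.52, 8.03, 7.56 and 8.25 in the double knockout (0.02, interval -0.34 to 0.38). The interaction of 1.89 (adjusted p = 0.00197) was kept in all 17 omissions. H2-Eb1, a class II antigen presentation gene, was low and even in the single knockout (7.19 to 7.27) and spread in the double knockout (7.90, 7.42, 9.02 and 9.18). That difference of 1.15 was not called (adjusted p = 0.168), and the interaction was 2.91 (interval 1.78 to 4.04, adjusted p = 0.0219). That call was lost in 4 of 17 omissions, without double-knockout arrays 1 and 3 (2.83, adjusted p = 0.124) and with the array median as a covariate (adjusted p = 0.291). Cd63, Ttc30b and Tmtc3 had interactions of -1.82, -1.87 and -1.66. In each of them double-knockout arrays 1 and 3 were the low ones (9.89 and 10.42 against 11 and 10.97 for Cd63), and none was kept without these arrays. Each of these interactions was also lost in 8 of 17 omissions and with the array median as a covariate (adjusted p = 0.506, 0.459 and 0.456).

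Gene lists were then read for the H3K4 machinery itself. Of 9 H3K4 demethylases none was called (median -0.05, from -0.21 for Kdm5a to 0.11 for Riox2), and Kdm5b, the close relative of Rbp2, was at -0.18 (adjusted p = 0.38). Of 19 methyltransferase complex genes 1 was higher: Paxip1, which encodes PTIP of the MLL3 and MLL4 complexes, rose from 10.43, 10.60 and 10.33 to 11.08, 10.96, 11 and 10.87 (0.52, SE 0.10, adjusted p = 0.0142). Paxip1 also rose in Rbp2 RIP-Cre (0.46, adjusted p = 0.0188), and the list's median was -0.01. The call of Paxip1 in Rbp2 RIP-Cre was lost in 2 of 17 omissions. After cyclic loess (0.26, adjusted p = 0.0935) and with the array median as a covariate (adjusted p = 0.224) it was also lost. The call of Paxip1 in the Men1-deleted islets was lost without single-knockout array 1, single-knockout array 3 or double-knockout array 1 (adjusted p up to 0.095) and without double-knockout arrays 1 and 3 (0.46, adjusted p = 0.135). The share of 5.26% stands beside 1.67% of all genes. Of 37 Hox genes, known targets of menin and MLL1, none was called (median 0.16). Hoxc10, the lowest at -1.23, read 10.11 on single-knockout array 2 and 5.90 to 6.27 on the other 6 arrays.

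Of 24 beta cell identity and function genes 1 was called, and the list's median of -0.12 lay below the 0.07 of all genes. Foxa2, a forkhead factor of endoderm and beta cells, rose from 9.46, 9.57 and 9.33 to 10.08, 10.07, 9.75 and 10.06 (0.54, SE 0.10, adjusted p = 0.00925). That call was lost without single-knockout array 1 or 3 (adjusted p = 0.0546 and 0.0689) and without double-knockout arrays 2 and 4 (0.46, adjusted p = 0.0763). Of 10 genes of other islet endocrine cells all were above 0, beside 12960 of all 19938 genes, with a median of 0.37. Of the 10, 1 was called, beside 1.67% of all genes: Etv1, an ETS factor, at 0.90 (SE 0.19, adjusted p = 0.0187), lost without single-knockout array 1 or 3, double-knockout array 1 or 2 and from either pair of double-knockout arrays (adjusted p = 0.0882 and 0.0884). Ttr, transthyretin, an alpha cell transcript, read 11.15 to 11.23 in the single and 11.81 to 12.60 in the double knockout (0.92, adjusted p = 0.0504). The array mean of these 10 genes was 9.88 to 10.13 in the single and 10.30 to 10.64 in the double knockout. In bulk islets, fewer cells of a type and less RNA per cell cannot be told apart. Among 21 genes usually silent in beta cells 1 was lower, Oat, ornithine aminotransferase (-0.58, adjusted p = 0.0423), which lost its call upon 11 of 17 omissions (adjusted p up to 0.28, without single-knockout array 1) and from either pair of double-knockout arrays. None of 18 exocytosis genes was called.

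Cell cycle genes were read because menin loss leads to beta cell proliferation. Of 20 G1 genes 1 was called: Ccnd1, cyclin D1, which drives entry into the cycle with CDK4 and CDK6, rose from 9.47, 10.07 and 10.09 to 11.07, 11.49, 10.91 and 11.54 (1.38, SE 0.20, adjusted p = 0.00142). RIP-Cre was at 10.24 to 10.76, so the single knockout was lower than RIP-Cre (-0.65, adjusted p = 0.0202) and the double knockout higher (0.73, adjusted p = 0.015). None of 29 replication genes (median 0.13), none of 29 mitosis genes (median 0.14) and none of 6 CDK inhibitors was called. Cdkn1b and Cdkn2c, the genes of p27 and p18 that menin is known to activate, were at -0.07 (SE 0.09, adjusted p = 0.689) and -0.22 (SE 0.14, adjusted p = 0.485).

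Metabolic and stress lists had no called members here and many in Rbp2 RIP-Cre, a difference between lists that was not tested. Of 73 oxidative phosphorylation genes none was called in the double against the single knockout (median 0.07, from -0.38 to 0.42), and 35 were higher in Rbp2 RIP-Cre against RIP-Cre (median 0.41), where 6.70% of all genes were. Of 26 unfolded protein response genes none was called here (median -0.02) and 17 were higher there (median 0.60). Of 28 fatty acid and cholesterol synthesis genes none was called here (median -0.08) and 9 were higher there. These counts belong to a comparison whose calls went from 2672 to 42 with the array median as a covariate, under which Dnajb9 went from 1.37 to 0.54 (adjusted p = 0.525). The interaction was not called for Ndufs1 (-0.57, adjusted p = 0.0529) or Dnajb9 (-1.91, adjusted p = 0.0523), a pair of members read for it. Of 77 mitochondrial ribosomal protein genes 2 were higher, Mrpl24 (0.68, adjusted p = 0.00359) and Mrpl46 (0.50, adjusted p = 0.0119), a share of 2.60% beside 1.67% of all genes. Mrpl24 lost its call without double-knockout arrays 1 and 3 (0.53, adjusted p = 0.0613), and Mrpl46 without single-knockout array 1 or 3 and without double-knockout arrays 2 and 4 (0.44, adjusted p = 0.0763). Of 21 interferon response genes Irf1 was higher (0.56, adjusted p = 0.01) and Usp18 lower (-0.78, adjusted p = 0.0169), a share of 9.52% beside 1.67% of all genes. Irf1 lost its call without single-knockout array 1 (adjusted p = 0.0902) and without double-knockout arrays 1 and 3 (0.42, adjusted p = 0.13). Usp18 lost it without single-knockout array 1 or 3, without double-knockout array 3 and without double-knockout arrays 1 and 3 (-0.69, adjusted p = 0.135). The other probe set of Irf1 gave 0.12 (adjusted p = 0.748). None was called among 28 Notch pathway, 18 circadian clock, 13 lactogen response and 23 immediate early genes.

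**Figure D5:**
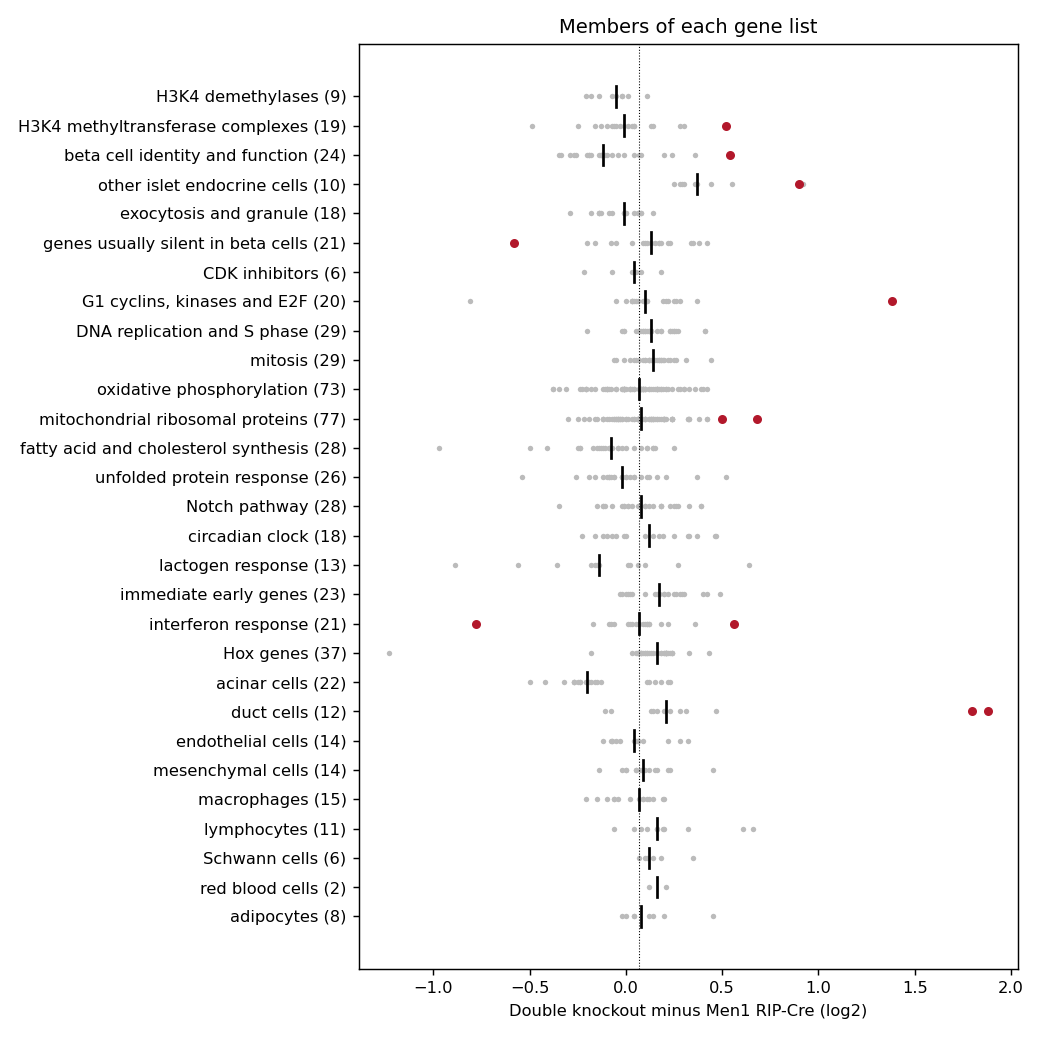
Every tested member of each list (number tested in brackets) by its log2 difference, double minus Men1 single knockout (x axis). Red points are called members, grey points are not, bars are list medians, and the dotted line is the median of all genes, 0.07. Prom1 and Cldn4, at 1.88 and 1.80, stand apart from the other 10 duct genes.

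Markers of other cell types were set beside these results. Of 12 duct genes 2 were called (16.7%, beside 1.67% of all genes), and the list's median was 0.21. The called members were Prom1 and Cldn4, which were already among the most raised genes and are part of the list's array mean of 8.08 to 8.21 in the single and 8.49 to 8.67 in the double knockout. Krt19, a defining duct keratin, read 6.87 to 7.0 and 6.98 to 7.09 (0.14, SE 0.16, adjusted p = 0.685). None was called among 22 acinar (median -0.20), 14 endothelial (0.04), 14 mesenchymal (0.09), 15 macrophage (0.07), 11 lymphocyte (0.16), 6 Schwann cell (0.12), 8 adipocyte (0.08) and 2 red blood cell genes (0.16). The lymphocyte mean was 6.87 to 6.95 in the single knockout and reached 7.81 on 1 of the 4 double-knockout arrays, whose lowest was 6.86. The part of other cell types in the called genes was not tested beyond these values and the fit with the acinar mean as a covariate, under which all 44 called genes that are named here kept their calls.

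A floxed allele can bring along neighbouring sequence from the strain it was made in. Kdm5a lies on chromosome 6 in the gene table. Of the 40 tested genes on each side of it, 80 in all, 3 were called (3.75%), all lower: Apobec1, Usp18 and Iqsec3, a synaptic guanine nucleotide exchange factor (-0.53, SE 0.11, adjusted p = 0.0219). Apobec1 kept its call in all 17 omissions. Iqsec3 lost it without single-knockout array 1 (adjusted p = 0.178), double-knockout array 2 or 4, with the 7 arrays alone (0.0698) and without double-knockout arrays 2 and 4 (0.119), and Usp18 lost it in the settings named with its list. The share over chromosome 6 was 2.72% of 1101 genes and the median of the neighbours was 0.06. In Rbp2 RIP-Cre against RIP-Cre, 2 of the 80 were higher and 15 lower (21.2%, beside 13.4% of all genes). Apobec1 was lower in both comparisons. For these genes the deletion and any neighbouring sequence carried with the Rbp2 allele cannot be told apart.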

How the data were processed

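The authors deposited log2 intensities for 35512 probe sets on 17 arrays. How they were background-corrected and normalized is not given in the sources used here. Scanner signals were not used here, and the number of arrays and their spread limit the precision. Probe sets that name 1 gene (21789) were kept, 1621 that name several and 12102 outside the gene table were not, and each of 19938 genes was read from its brightest probe set by mean over the 17 arrays. Means of the 5 groups were estimated in limma 3.58.1 (lmFit, eBayes; R 4.3.3) from all 17 arrays, with adjustment by Benjamini-Hochberg over all genes within a comparison. On simulated data with independent noise on each array, the fit called 46% of genes changed by 0.5 log2 units and 88% of those changed by 1. It also called 12 unchanged genes. Neither the pairing of double-knockout arrays nor the shift in array medians was simulated. Named are Men1, Kdm5a, the 15 highest and 15 lowest called genes, the leading genes of both Rbp2 comparisons (8 in the same direction, 6 opposite) and of the interaction (6 in each direction), and called or extreme list members. Left out of naming were 8 called genes with clone, predicted, receptor-segment or small RNA symbols. Neighbours of Kdm5a and context genes such as G6pc2, Ttr and Krt19 were added outside that rule. Members and lists were chosen with earlier results of these data known. Promoters and gene order are RefSeq's on GRCm38.p6. Alternatives were other normalizations, filters, probe set rules, variance models, covariates, a replicate block and omission of arrays.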

Additional observations from a re-analysis of the deposited data

Results flagged for a closer look

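Single arrays lay far from the other 3 of their group in 15 of 186 groups of 4 examined over the 93 named genes (the value and the opposite end of the group are in brackets), a gap that chance gives in about 1 in 20 groups. In the Rbp2 RIP-Cre group the highest level stood apart for Apobec1 on array 4 (8.95, to 8.56), Fam107a on array 4 (7.70, to 7.49), Gdpd3 on array 2 (9.49, to 7.41), H2-Eb1 on array 3 (8.62, to 7.27) and Scn3a on array 2 (8.61, to 8.55). In the Rbp2 RIP-Cre group the lowest level stood apart for Cdh19 on array 1 (6.07, to 6.79), Cldn5 on array 1 (7.72, to 8.15), Cry2 on array 2 (10.26, to 10.41), Hoxc9 on array 1 (6.24, to 6.70), Irf1 on array 1 (9.04, to 9.21) and Ndufs1 on array 4 (8.62, to 9.05). In the double-knockout group the highest level stood apart for Ctrc on array 3 (9.11, to 7.46). In the double-knockout group the lowest level stood apart for Astn1 on array 2 (8.03, to 8.24), Foxa2 on array 3 (9.75, to 10.08) and Kdm5b on array 1 (9.08, to 9.31). 

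The effect of Rbp2 loss differed between islets without and with Men1 for 28 of the 93 named genes, by the interaction term of limma. This count is partly fixed by the choice of genes, since 12 were named for leading the interaction and others for large differences that are part of it, and 3.39% of all genes were called. It was more positive without Men1 (log2 difference between the effects) for H2-Eb1 (2.91), Myo7a (1.92), Prom1 (1.92), Gem (1.89), Eps8l2 (1.85), Trim12a (1.67), Spc25 (1.62), Cyp4f39 (1.46), Tnfrsf17 (1.26), Cib3 (1.21), Scn3a (0.92) and Irf1 (0.88). It was more negative for Lrrc55 (-2.58), Zfp868 (-1.90), Ttc30b (-1.87), Cd63 (-1.82), Tmtc3 (-1.66), Adh1 (-1.58), Fam107a (-1.54), Cntfr (-1.44), Ppp2r2c (-1.37), Nebl (-1.20), Ciapin1 (-1.04), Asphd2 (-1.02), Rgs5 (-0.90), Usp18 (-0.90), Astn1 (-0.81) and Rrm1 (-0.64). Of these 28, Adh1, Cyp4f39, Eps8l2, Fam107a, Gem, Lrrc55, Myo7a, Tnfrsf17, Trim12a and Zfp868 kept the call in all 17 omissions of 1 array. Among them, Cyp4f39 and Zfp868 lost it with the array median as a covariate (adjusted p = 0.0587 and 0.136). Without double-knockout arrays 1 and 3 together, Zfp868 lost it too (adjusted p = 0.0726). So did every gene of the 28 that is not listed as kept in all 17 omissions.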

How the results depend on the processing

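The 333 calls were 241 with the repeat number as a replicate block (227 of them shared), and 328 to 465 under the other planned settings, single-array omissions aside. Repeat numbers did not pair the arrays: deviations of same-numbered single- and double-knockout arrays correlated at -0.08, -0.06 and -0.06. Leaving out 1 array at a time gave 111 to 416 calls (109 to 332 shared), 223 to 3611 for Rbp2 RIP-Cre against RIP-Cre, 22 to 2783 for the interaction, 35 to 105 genes called in both and a median over all genes of 0.06 to 0.08. Fits without a pair of double-knockout arrays were chosen after seeing the data: without arrays 1 and 3 the calls were 163 and the interaction 12, and without arrays 2 and 4 the interaction 3340. With the groups compared alone, the Rbp2 RIP-Cre count was 1080, the interaction 1375 and the genes in both 45. With the array median as a covariate these were 42, 20 and 17, and the median over all genes 0.02. The acinar mean as a covariate gave 1430 for Rbp2 RIP-Cre. For the interaction the replicate block gave 1933, the intensity trend with robust variances 1198 and the filter on dim genes 1400. Cyclic loess took the median over all genes to 0.01. The cause of these changes was not tested. Of the 44 named genes called, the block kept 40 (lost Iqsec3, Oat, Plagl1 and Usp18), the 7 arrays alone kept 40, cyclic loess 44 and the array median 42. Omitting single-knockout array 1 kept 29, array 3 kept 33, double-knockout arrays 1 and 3 kept 31 and arrays 2 and 4 kept 34. None of these 44 changed sign in the settings run, while uncalled named genes near 0 could: Gem was at 0.02, and at -0.02 after cyclic loess. Dim genes were called rarely, with 2 higher and 1 lower among the 1995 genes of lowest level.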
